A study of Mus musculus with 30 samples.

Results

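Immediate early response genes are genes whose transcripts appear within minutes of a stimulus, before any new protein is made. They encode transcription factors of the AP-1, EGR, NR4A and KLF families, phosphatases that switch off the mitogen-activated protein kinases, and proteins that destroy messenger RNA or stop the cell cycle. In the heart they are known for their response to stretch, adrenergic drive and ischaemia, and several of their transcripts decay again within hours. Here 39 such genes, named by symbol from general knowledge of the response and with Fosb, Egr1 and Atf3 as its markers, were followed. All 39 were found among the 55487 genes of the count table, matched by their Ensembl identifiers to symbols in GENCODE release M21.

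The data are poly(A) RNA counts from 30 mouse hearts collected 8 weeks after surgery, either sham or transverse aortic constriction (TAC), in which a clip narrows the aorta and raises the pressure the heart works against. Cpt1a, the gene under study, encodes carnitine palmitoyltransferase 1a, which passes long-chain fatty acids into mitochondria. In the floxed cohort, mice carried floxed Cpt1a alleles (FF_sham and FF_TAC) or a cardiac-specific Cpt1a knockout (KO_sham and KO_TAC), with 4 libraries in each of the 4 groups. In the AAV9 cohort, C57Bl/6 mice received PBS (PBS_sham and PBS_TAC, 3 libraries each) or an adeno-associated virus 9 vector carrying Cpt1a, with cTNT in its name (AAV_sham and AAV_TAC, 4 libraries each). The Cre driver and the ages are not given in the sources used here, nor is which mouse had which clip size. The labels do not state that each library came from its own mouse, so p-values measure the spread between these libraries.

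Total counts ran from 14839758 to 22070373 per library, and the cardiomyocyte markers Myh6, Tnnt2, Tnni3, Actn2, Ryr2 and Myl2 summed to 23834 to 60346 CPM (counts scaled to each library's total). Cpt1a went against the labels in 3 libraries: it was 46.2 CPM in the library labelled KO_sham 2, against 20.3 to 23.6 CPM in KO_sham 1, 3 and 4, and only 20.3 and 16.2 CPM in the libraries labelled FF_TAC 2 and 3, against 48.8 and 33.95 CPM in FF_TAC 1 and 4. It was 37.8 to 52.6 CPM in FF_sham and 11.1 to 19.6 CPM in KO_TAC. In the AAV9 cohort Cpt1a was 37.4 to 68.0 CPM in PBS_sham and 56.3 to 88.3 CPM in AAV_sham. It was 40.2 to 61.5 CPM in PBS_TAC and 44.8 to 62.6 CPM in AAV_TAC, so vector and PBS libraries overlapped in both. The same 3 libraries, together with all 4 KO_TAC libraries, held 1.40 to 51.1 CPM of haemoglobin transcripts, summed over the genes Hbb-bt, Hbb-bs, Hba-a2 and Hba-a1, against at least 293.9 CPM in the other 23. These 7 are called the haemoglobin-low libraries. They set nearly every early response value in the floxed cohort, so each result is given with the split.

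The markers of the module show the pattern most plainly. Fosb, an AP-1 subunit (chromosome 7, 19302696 to 19310051, minus strand, GRCm38), was 0.305, 0.544, 0.171 and 0.369 CPM in FF_sham 1 to 4. In FF_TAC 1 to 4 it was 0.219, 211, 462 and 0.662 CPM. In KO_sham 1 to 4 it was 0.414, 349, 0.312 and 0.209 CPM, and in KO_TAC 1 to 4 it was 509.6, 67.7, 29.6 and 99.6 CPM. Every haemoglobin-low library was at 29.6 CPM or more and every other floxed library at 0.662 CPM or less, whatever its group.

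Egr1, a zinc finger factor induced by growth signals, was 12.2, 36.3, 12.6 and 11.6 CPM in FF_sham, and 17.7, 714, 957 and 19.8 CPM in FF_TAC. It was 16.8, 665, 12.4 and 15.1 CPM in KO_sham and 882, 536, 412 and 694 CPM in KO_TAC. Atf3, a stress-induced repressor of the same dimerising class as AP-1 (chromosome 1, 191170296 to 191218039, minus strand), was 2.44, 3.76, 4.21 and 5.67 CPM in FF_sham, and 3.01, 279.9, 295 and 6.13 CPM in FF_TAC. In KO_sham it was 5.06, 388, 4.94 and 6.32 CPM, and in KO_TAC 595, 143, 136 and 226 CPM. For both genes the 7 haemoglobin-low libraries again stood apart from the other 9 without overlap, and KO_TAC lay in the range of the libraries labelled FF_TAC 2, FF_TAC 3 and KO_sham 2 or below it, apart from Atf3 in KO_TAC 1.

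**Figure D1:**
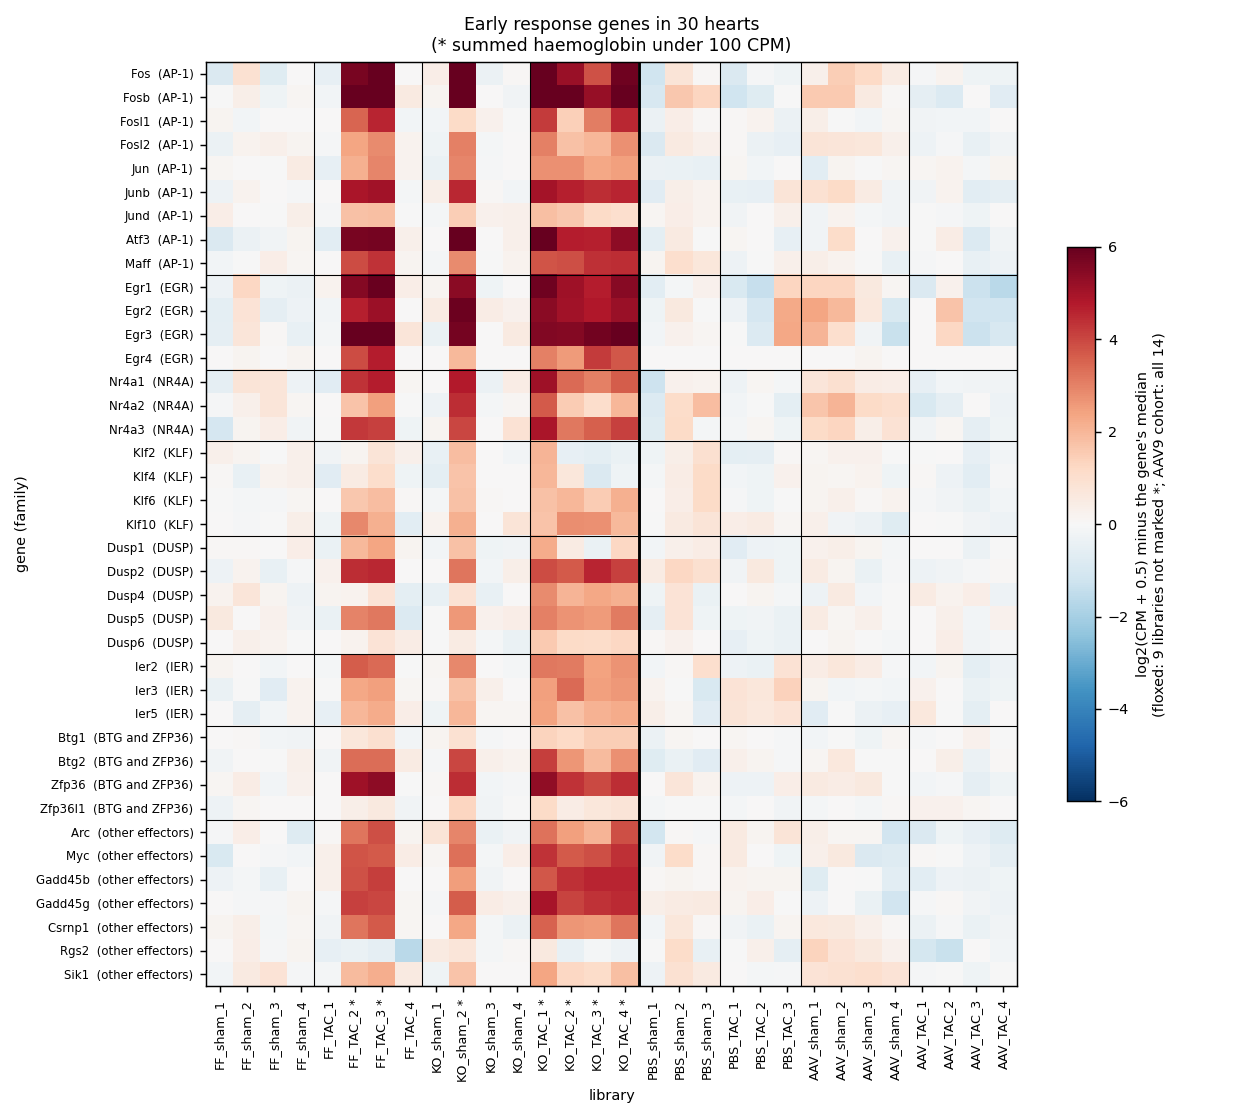
Colour map of the 39 genes (rows, by family) in the 30 libraries (columns, by group); colour is log2(CPM + 0.5) minus the gene's median over the 9 unmarked floxed libraries or over the 14 AAV9 libraries. Red columns fall on the 7 libraries marked with an asterisk (summed haemoglobin under 100 CPM): FF_TAC 2 and 3, KO_sham 2 and KO_TAC 1 to 4.

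Across the module, the split could be described within each of the groups that hold both kinds of library. The 2 haemoglobin-low FF_TAC libraries lay above the other 2 for 36 of 39 genes (29.1% of all 15596 genes tested), and the library labelled KO_sham 2 lay above the other 3 for all 39 (34.3% of genes). Both held for 36 genes (10.9% of genes), both by at least 2-fold for 33 (1.35%) and both by at least 8-fold for 14 (0.269%). On the scale of log2(CPM + 0.5), the median difference of the 39 between low and high libraries was 3.43 in FF_TAC and 2.82 in KO_sham, against -0.007 and 0.003 for all genes tested. Taken over the cohort, the 7 low libraries lay above the other 9 without overlap for 33 of 39 genes (4.05% of genes) and below them for 0 (1.94% of genes). The mean log2 level over the 39 was 6.01 to 6.97 in the 7 low libraries and 3.19 to 3.53 in the other 9. It was 3.94 to 4.84 in the 14 AAV9 libraries, which were normalised apart from the floxed cohort.

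**Figure D2:**
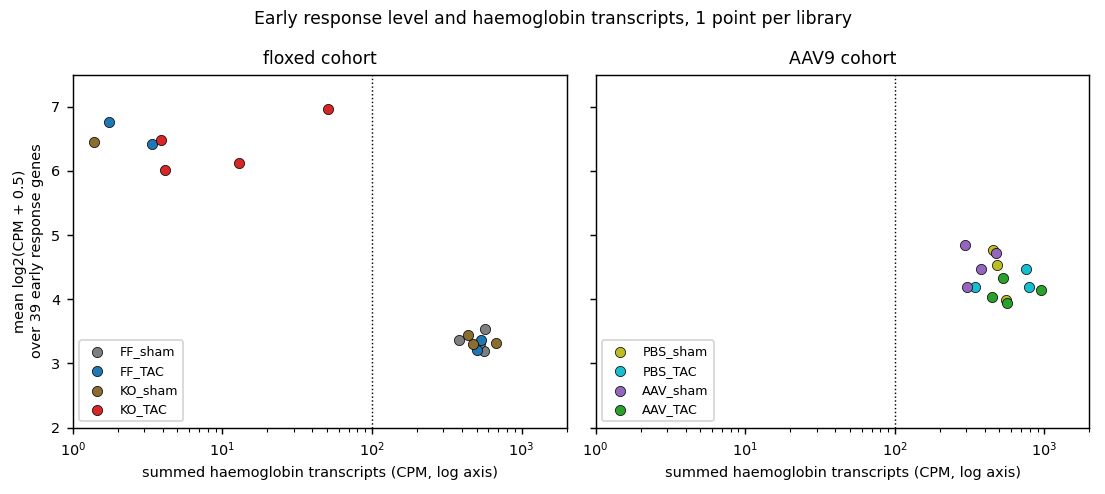
Mean log2(CPM + 0.5) over the 39 genes (vertical) against summed haemoglobin transcripts in CPM (horizontal, log axis), 1 point per library, coloured by group; the dotted line is the 100 CPM limit. The 7 floxed libraries left of the line sit between 6.01 and 6.97, the 9 right of it between 3.19 and 3.53, and the 14 AAV9 libraries between 3.94 and 4.84.

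By family, all 9 AP-1 genes, all 4 EGR genes, all 3 NR4A genes and all 3 IER genes were at least 2-fold higher in the low libraries of both mixed groups. The EGR genes had the largest median difference, 5.20 in FF_TAC and 5.49 in KO_sham. Junb, an AP-1 subunit, was 417 to 636 CPM in the 7 low libraries and 15.6 to 24.5 CPM in the other 9. Egr3, another EGR factor, was 94.1 to 219.6 CPM (median 118) in the 7 low libraries and 0.976 to 3.04 CPM in the other 9. Nr4a3, an orphan nuclear receptor, was 33.7 to 112 CPM in the low libraries and 1.40 to 6.32 CPM in the others. Its relative Nr4a2 was 5.66 and 9.74 CPM in the libraries labelled FF_TAC 2 and 3, 39.5 CPM in that labelled KO_sham 2, and 23.2, 4.87, 3.39 and 6.96 CPM in KO_TAC, against at most 2.56 CPM in the other 9.

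A pair of genes that were all but silent in hearts with high haemoglobin were higher in each low library. Fosl1, which encodes the AP-1 subunit FRA-1, was at most 0.156 CPM in the 9 other floxed libraries and at most 0.332 CPM in the AAV9 cohort. It was 5.78 and 12.6 CPM in the libraries labelled FF_TAC 2 and 3, 0.729 CPM in that labelled KO_sham 2, and 9.74, 0.975, 4.11 and 12.3 CPM in KO_TAC 1 to 4. Egr4 was at 0 counts in FF_TAC 1 and 4 and in KO_sham 1, 3 and 4. It was 7.11 and 12.6 CPM in the libraries labelled FF_TAC 2 and 3, at least 59-fold higher than the 3 counts per library that a count of 0 allows, and 1.40 CPM in that labelled KO_sham 2, at least 8.15-fold higher by the same limit. With Egr4 at these bounds the median difference over the 39 was 3.43 in FF_TAC and 2.86 in KO_sham. In KO_TAC 1 to 4 Egr4 was 3.59, 2.40, 8.67 and 6.19 CPM. Fosl1 shares exon sequence with Ccdc85b on the opposite strand, and since the strand setting of the counting is not given its level is uncertain. The same holds for Jun, Junb, Jund, Dusp1, Dusp5, Zfp36, Zfp36l1 and Csrnp1, which also overlap an exon of a gene on the opposite strand.

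Genes of the other families were also higher in the same libraries. Zfp36, whose protein tristetraprolin marks AU-rich messenger RNAs for decay, was 318 to 852 CPM in the 7 low libraries and 17.9 to 27.7 CPM in the other 9. Btg2, an antiproliferative gene, was 29.3 to 48.3 CPM in the other 9, 359 and 352 CPM in the libraries labelled FF_TAC 2 and 3, 555 CPM in that labelled KO_sham 2 and 621, 220.2, 128 and 231 CPM in KO_TAC. Ier3, an early gene linked to cell survival, was 20.1 to 39.5 CPM in the other 9, 161 and 177 CPM in FF_TAC 2 and 3 as labelled, 109 CPM in the library labelled KO_sham 2, and 177, 343, 176 and 197 CPM in KO_TAC. Klf6, a zinc finger factor, was 53.4 to 62.8 CPM in the other 9 and 168 to 256 CPM in the 7. Sik1, a kinase induced by cyclic AMP, was 21.1 to 44.8 CPM in the other 9 and 55.8 to 136 CPM in the 7. Gadd45b, a growth arrest gene, was 5.86 to 10.1 CPM in the other 9, and 120.1 and 153 CPM in the libraries labelled FF_TAC 2 and 3. It was 47.3 CPM in that labelled KO_sham 2 and 111, 177, 204 and 201 CPM in KO_TAC.

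For the genes so far given by their range, the libraries stood as follows, in the order of replicates 1 to 4. Egr3 was 0.976, 2.99, 1.71 and 1.05 CPM in FF_sham, 1.42, 139, 219.6 and 3.04 CPM in FF_TAC, 1.105, 111.5, 1.61 and 2.56 CPM in KO_sham and 100.0, 94.1, 118 and 175.8 CPM in KO_TAC. Nr4a3 was 1.404, 3.702, 4.49 and 2.77 CPM in FF_sham, 3.18, 70.6, 64.8 and 2.71 CPM in FF_TAC, 3.77, 59.9, 3.27 and 6.32 CPM in KO_sham and 112, 33.7, 45.4 and 64.5 CPM in KO_TAC. In both, the libraries labelled FF_TAC 2 and 3, that labelled KO_sham 2 and all of KO_TAC were the high ones. Nr4a2 was 1.28, 1.797, 2.56 and 1.54 CPM in FF_sham, 1.37, 5.66, 9.74 and 1.32 CPM in FF_TAC, 1.01, 39.5, 1.25 and 1.51 CPM in KO_sham and 23.2, 4.87, 3.39 and 6.96 CPM in KO_TAC. Klf6 was 56.3, 53.8, 54.4 and 62.8 CPM in FF_sham, 57.9, 177.3, 207.2 and 60.3 CPM in FF_TAC, 53.4, 195.6, 60.9 and 58.6 CPM in KO_sham and 196.9, 234.9, 168.1 and 255.5 CPM in KO_TAC. The same 7 were above the other 9 in these genes, with the library labelled KO_sham 2 highest for Nr4a2 and KO_TAC 4 highest for Klf6. Btg2 was 29.3, 34.5, 34.2 and 43.2 CPM in FF_sham, 29.9, 358.5, 352.1 and 48.3 CPM in FF_TAC, 33.1, 554.6, 42.6 and 40.3 CPM in KO_sham and 620.7, 220.2, 128 and 230.6 CPM in KO_TAC. Sik1 was 22.9, 37.8, 44.8 and 24.3 CPM in FF_sham, 23.2, 96.7, 117.1 and 37.6 CPM in FF_TAC, 21.1, 85.7, 25.9 and 25.6 CPM in KO_sham and 135.6, 60.6, 55.8 and 91.4 CPM in KO_TAC. KO_TAC 1 was the highest and KO_TAC 3 the lowest of the 7 for both. Ier3 was 24.3, 31.03, 20.1 and 37.4 CPM in FF_sham, 31.4, 160.7, 176.8 and 34.6 CPM in FF_TAC, 33.8, 109, 39.5 and 32.04 CPM in KO_sham and 176.8, 343.1, 176.3 and 197.1 CPM in KO_TAC. Gadd45b was 6.41, 7.46, 5.86 and 8.19 CPM in FF_sham, 10.1, 120.1, 153 and 8.28 CPM in FF_TAC, 8.06, 47.3, 6.91 and 8.04 CPM in KO_sham and 110.7, 176.8, 203.8 and 200.7 CPM in KO_TAC. Fosl1 was 0.122, 0, 0.0568 and 0.0616 CPM in FF_sham, 0.0548, 5.78, 12.6 and 0 CPM in FF_TAC, 0, 0.729, 0.156 and 0.0522 CPM in KO_sham and 9.74, 0.975, 4.11 and 12.2 CPM in KO_TAC. In these 3 the library labelled KO_sham 2 was the lowest of the 7. Egr4 was 0, 0.0544, 0 and 0.0616 CPM in FF_sham, 0, 7.11, 12.6 and 0 CPM in FF_TAC, 0, 1.397, 0 and 0 CPM in KO_sham and 3.59, 2.4, 8.67 and 6.18 CPM in KO_TAC. It too was lowest of the 7 there.

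Of the 39 genes, 6 did not separate the 7 low from the other 9 floxed libraries: Klf2, Klf4, Dusp1, Dusp4, Dusp6 and Rgs2. Klf2 and Klf4, factors prominent in endothelium, were highest in the library labelled KO_sham 2 (162 and 149.5 CPM) and in KO_TAC 1 (183 and 182 CPM). Klf2 was 29.0 to 33.5 CPM in KO_TAC 2 to 4, near the lower end of the 32.6 to 55.1 CPM seen in the other 9. Rgs2, a regulator of G protein signalling, overlapped within FF_TAC and over the cohort, with 21.6 to 51.9 CPM in the low libraries and 9.99 to 46.5 CPM in the others. Dusp1, the phosphatase MKP-1, was 48.7 to 326 CPM and 48.4 to 83.9 CPM respectively, with only KO_TAC 3 at the level of the high libraries. Dusp4 and Dusp6 were highest in KO_TAC and are described with the knockout.

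The 7 low libraries also differed among themselves. Of the 39 genes, 14 were highest in KO_TAC 1, 11 in the library labelled FF_TAC 3 and 17 were lowest in KO_TAC 3. The ratio of the highest to the lowest of the 7 was 17.3 for Fos, which was 691 CPM in KO_TAC 1 and 39.9 CPM in KO_TAC 3, and 11.6 for Nr4a2. The same ratio was 1.52 for Junb and for Klf6 and 1.53 for Dusp5. KO_TAC 1 and the library labelled KO_sham 2, with 691 and 610 CPM of Fos, held the 2 highest levels of Fos, Klf2, Klf4, Btg2 and Nr4a2. Gadd45b and Maff had the opposite order for the library labelled KO_sham 2, which was the lowest of the 7.

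Red cell markers differed between the 7 and the other 9 libraries by construction, as all but Alas2 are the haemoglobin genes defining the split. The other markers overlapped. Red cell markers (5 genes) summed to 1.58 to 46.6 CPM in the 7 and 416 to 668 CPM in the other 9, with Hba-a2 at 0 in the library labelled KO_sham 2. Endothelial markers (5 genes) summed to 742 to 1187 CPM in the 7 and 1063 to 1346 CPM in the other 9. Fibroblast markers (5 genes) summed to 885 and 949 CPM in the libraries labelled FF_TAC 2 and 3, 1002 CPM in that labelled KO_sham 2, 1696 to 1766 CPM in KO_TAC and 779 to 1455 CPM in the other 9, so that only KO_TAC stood apart. Atrial markers (3 genes) summed to 2.02 and 2.23 CPM in the libraries labelled FF_TAC 2 and 3, 1672 CPM in the library labelled KO_sham 2, 3.63 to 8469 CPM in KO_TAC and 1.71 to 2797 CPM in the other 9. Mitochondrially encoded transcripts took 20.9% and 21.05% of counts in the libraries labelled FF_TAC 2 and 3, 23.5% in that labelled KO_sham 2, 12.1% to 18.7% in KO_TAC and 21.6% to 26.0% in the other 9. The part of these measures in the early response levels was not tested, and in bulk RNA fewer cells of a type and less RNA per cell cannot be told apart.

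Neighbouring stress genes were counted from lists of the same kind. Of 29 other early or NF-kappaB induced genes tested, 18 were at least 2-fold higher in the low libraries of both mixed groups (1.35% of all genes). For 25 of the 29 the 7 libraries lay above the other 9 (4.05% of all genes). They also did so for 7 of 10 heat shock genes, 1 of 12 hypoxia genes and 1 of 20 upstream factors. The count at 2-fold or more was 5 of 10 for heat shock genes, 1 of 12 for hypoxia genes and 0 of 20 for the upstream factors. These factors include Srf, Creb1, the Elk factors and the kinases of the ERK and p38 pathways. For the upstream factors the median difference was 0.000 in FF_TAC and 0.049 in KO_sham.

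Promoters of the module are shown because its members moved together in the same libraries. RefSeq promoter windows of 250 bases before to 50 after the start (GRCm38.p6) matched 30 of the 39 genes, in 39 windows. The 9 without a window, which were not searched, were Fosl1, Egr1, Egr3, Klf10, Dusp4, Ier2, Arc, Myc and Sik1. Both strands were searched for the CArG box bound by serum response factor, the cAMP response element TGACGTCA, the AP-1 site TGANTCA and the EGR site GCGTGGGCG. The CArG box was in windows of Egr2, Dusp5 and Zfp36 (10% of the 30 genes, 1.63% of 32851 windows). The cAMP response element was in Maff, Dusp1 and Btg2 (10%, against 1.79% of windows). The AP-1 site was in Zfp36l1 and Csrnp1 (6.67%, against 7.81%), and the EGR site was in Maff (3.33%, against 0.612%). The 200 bases before the start are printed 5′ to 3′ for Fosb, the gene with the largest difference, and for 4 genes with a match, whose letters are in capitals.
Fosb, chr7:19310046-19310245, minus strand, none of the motifs: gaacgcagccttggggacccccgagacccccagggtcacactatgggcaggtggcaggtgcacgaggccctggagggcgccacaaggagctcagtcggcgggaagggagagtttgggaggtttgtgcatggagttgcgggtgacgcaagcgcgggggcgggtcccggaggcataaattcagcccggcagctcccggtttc
Egr2, chr10:67537366-67537565, plus strand, CArG box: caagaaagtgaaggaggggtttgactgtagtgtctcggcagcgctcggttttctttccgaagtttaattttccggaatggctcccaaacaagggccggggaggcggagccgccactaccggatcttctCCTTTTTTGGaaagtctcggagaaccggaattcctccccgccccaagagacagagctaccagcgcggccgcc
Zfp36, chr7:28379229-28379428, minus strand, CArG box: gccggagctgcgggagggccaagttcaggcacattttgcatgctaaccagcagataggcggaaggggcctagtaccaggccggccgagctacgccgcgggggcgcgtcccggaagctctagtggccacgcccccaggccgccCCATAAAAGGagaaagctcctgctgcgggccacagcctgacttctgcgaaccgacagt
Btg2, chr1:134079156-134079355, minus strand, cAMP response element: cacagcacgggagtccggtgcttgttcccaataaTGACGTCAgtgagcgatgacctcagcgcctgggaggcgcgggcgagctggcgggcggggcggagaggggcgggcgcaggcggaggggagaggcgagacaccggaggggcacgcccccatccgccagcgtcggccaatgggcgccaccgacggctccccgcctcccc
Maff, chr15:79347320-79347519, plus strand, EGR site and cAMP response element: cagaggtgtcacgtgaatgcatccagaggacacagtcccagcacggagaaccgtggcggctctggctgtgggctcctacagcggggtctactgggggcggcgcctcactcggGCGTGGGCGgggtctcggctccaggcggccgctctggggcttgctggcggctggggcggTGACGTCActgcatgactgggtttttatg
The CArG box began 72 bases before the start in Egr2 and 58 before it in Zfp36. The cAMP response element began 166 bases before the start in Btg2 and 29 before it in Maff, and the EGR site of Maff began 88 before it. A match describes letters only, and for Fosb no match says only that these letters are not in this window.

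KO_TAC against KO_sham asks, by the labels, how overload changed the knockout heart. With edgeR's quasi-likelihood test and p-values adjusted over all genes (Benjamini-Hochberg), 8 of the 39 genes rose (20.5%, against 14.3% of all genes called higher and 25.8% called in either direction) and 0 fell (11.5% of genes). The 8 were the AP-1 genes Fosl1 and Maff, the phosphatase genes Dusp4 and Dusp6, and Ier3, Btg1, Myc and Gadd45b. Of the 39, 36 had a higher mean in KO_TAC, and the median log2 fold change was 1.34, against 0.02 for all genes. Every KO_TAC library lay above every KO_sham library for 12 of the 39 (30.8%, against 11.1% of genes). Among the 8 called genes Fosl1 had the largest change (4.93, SE 1.41, adjusted p 0.0212), followed by Gadd45b (3.31, SE 0.86, adjusted p 0.014) and Maff (2.82, SE 0.89, adjusted p 0.0316). Fosl1 passed the filter on low counts only through the haemoglobin-low libraries, being at most 0.156 CPM in the other 9, so the size of its change is uncertain. Fosl1, Maff and Myc each lost the call without KO_sham 1, 3 or 4, which left 5 genes called, and Maff and Myc also without KO_TAC 2, 3 or 4.

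The markers were not called in that comparison, although all 4 KO_TAC libraries lay above 3 of the 4 KO_sham libraries. The log2 fold change was 1.01 for Fosb (SE 1.87, adjusted p 0.708), 1.83 for Egr1 (SE 1.30, adjusted p 0.303) and 1.45 for Atf3 (SE 1.40, adjusted p 0.454), edgeR's quasi-likelihood test. The library labelled KO_sham 2 decided these values. Without it 35 of the 39 genes were called higher (11.3% of all genes called higher), the 4 others being Klf2, Klf4, Dusp1 and Rgs2, and the median log2 fold change was 3.07. Fosb, Fosl1 and Egr4 are among the 35 and passed the filter on low counts only through the haemoglobin-low libraries, so the sizes of their changes are uncertain. With a term for the haemoglobin-low libraries the median was -0.18, and 2 genes stayed called, Dusp4 and Dusp6 (0.866% of all genes called higher). KO_TAC holds no haemoglobin-high library, so knockout with overload and the split cannot be told apart from KO_TAC alone. The term is set by the libraries labelled FF_TAC 2 and 3 and KO_sham 2.

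**Figure D3:**
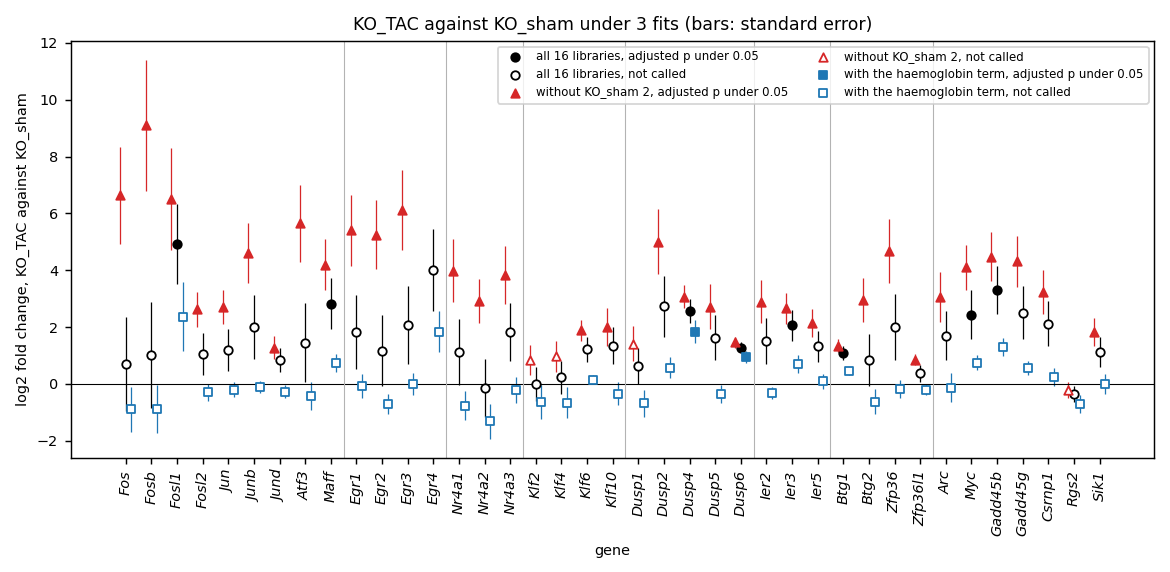
Log2 fold change of each of the 39 genes in KO_TAC against KO_sham with its standard error, fitted on all 16 libraries (black circles), without the library labelled KO_sham 2 (red triangles) and with the haemoglobin term (blue squares); filled symbols have an adjusted p under 0.05. The genes called are 8, 35 and 2 in turn; Egr4, 1 of the 35, is not drawn for the fit without KO_sham 2 because the 3 remaining KO_sham libraries are at 0.

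KO_TAC against FF_TAC asks, by the labels, what the knockout changed under overload. The libraries labelled FF_TAC 2 and 3 had 20.3 and 16.2 CPM of Cpt1a, near the 11.1 to 19.6 CPM of KO_TAC. A comparison among the low libraries alone therefore sets libraries that all have low Cpt1a against each other. Here 3 of the 39 genes rose by the same test and 0 fell (7.69%, against 7.53% of all genes called higher and 6.8% lower), a share near that of all genes. The 3 were Dusp4, Dusp6 and Btg1, which were also the 3 called with the haemoglobin term (3.91% of all genes called higher). The other 36 were not called, 35 of them with a positive log2 fold change, and the median log2 fold change over the 39 was 0.64. Among the haemoglobin-low libraries alone, 4 KO_TAC against the 2 labelled FF_TAC 2 and 3, the median was -0.11, with 14 genes higher, 25 lower and 0 called (0 of 16941 genes called; 4 of the 39 and 9.62% of genes at an unadjusted p under 0.05). Fosb was 0.07 over all libraries (SE 1.85, adjusted p 0.985), Egr1 0.56 (SE 1.27, adjusted p 0.789) and Atf3 0.91 (SE 1.38, adjusted p 0.684). All 3 had the opposite sign among the low libraries alone.

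Dusp4 and Dusp6 encode nuclear and cytoplasmic phosphatases that act on the ERK kinases, whose activity induces them. Dusp4 (chromosome 8, 34807297 to 34819894, plus strand) was 1.83, 2.83, 1.76 and 1.11 CPM in FF_sham, 1.75, 1.81, 3.002 and 0.828 CPM in FF_TAC, and 0.967, 3.22, 0.987 and 1.51 CPM in KO_sham. In KO_TAC it was 13.7, 7.65, 9.56 and 8.39 CPM. All 4 KO_TAC libraries lay above the other 12, and the libraries labelled FF_TAC 2 and 3 and KO_sham 2 did not join them. Its log2 fold change was 2.41 in KO_TAC against FF_TAC (SE 0.42, adjusted p 0.00242) and 2.57 against KO_sham (SE 0.42, adjusted p 0.0018), edgeR's quasi-likelihood test. With the haemoglobin term these were 1.90 (adjusted p 0.00912) and 1.83 (adjusted p 0.0397).

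Dusp6 (chromosome 10, 99263231 to 99267489, plus strand) was 16.6, 20.0, 19.2 and 15.8 CPM in FF_sham, 16.3, 18.8, 29.2 and 22.4 CPM in FF_TAC, and 16.1, 23.4, 15.02 and 12.4 CPM in KO_sham. In KO_TAC it was 49.5, 36.7, 36.0 and 39.01 CPM, again above all other 12. Within KO_sham the library labelled KO_sham 2 was the highest for Dusp6, and within FF_TAC low and high libraries overlapped. The log2 fold change was 0.90 against FF_TAC (SE 0.20, adjusted p 0.00841) and 1.27 against KO_sham (SE 0.20, adjusted p 0.00137), edgeR's quasi-likelihood test, and with the haemoglobin term 0.66 (adjusted p 0.0462) and 0.94 (adjusted p 0.04). Btg1, an antiproliferative gene (chromosome 10, 96617006 to 96622809, plus strand), was 28.9 to 35.3 CPM in FF_sham. It was 33.95, 54.5, 67.3 and 30.3 CPM in FF_TAC, 38.1, 64.0, 31.8 and 34.3 CPM in KO_sham and 85.5, 77.2, 96.8 and 95.8 CPM in KO_TAC. Unlike Dusp4 and Dusp6, it also separated all 7 low libraries from the other 9. Its log2 fold change against FF_TAC was 0.93 (SE 0.24, adjusted p 0.02), and 0.55 with the haemoglobin term (adjusted p 0.0172). The call was lost without FF_TAC 1, without FF_TAC 4 or without KO_TAC 3.

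These 3 are also the members for which all 4 KO_TAC libraries lay above the other 3 low libraries (7.69% of the 39, against 6.75% of all genes), while 0 lay below (6.58% of genes) and 36 overlapped. Among the haemoglobin-low libraries alone, their log2 differences between KO_TAC and FF_TAC were 2.004 for Dusp4 (adjusted p 0.228), 0.72 for Dusp6 (adjusted p 0.384) and 0.52 for Btg1 (adjusted p 0.43), by edgeR's quasi-likelihood test with 4 libraries against 2. Fibroblast markers also sum highest in KO_TAC, as given above. In the libraries labelled FF_TAC 2, FF_TAC 3 and KO_sham 2 they stayed within the range of the haemoglobin-high floxed libraries. The part of these markers in the 3 genes was not tested. The interaction of knockout and TAC was not called for any of the 39 genes by edgeR (0.0449% of genes called; 3 at an unadjusted p under 0.05, namely Fosb, Dusp4 and Dusp6, against 13.1% of genes). It was 2.61 for Dusp4 (SE 0.59, adjusted p 0.0979) and 0.99 for Dusp6 (SE 0.28, adjusted p 0.153). For Fosb it had the opposite sign, -7.87 (SE 3.28, adjusted p 0.32). Of the 39 genes, 31 had a negative interaction and 8 a positive one, with a median of -0.725. DESeq2 called 2 members for the interaction, with no share of all genes given beside them.

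**Figure D4:**
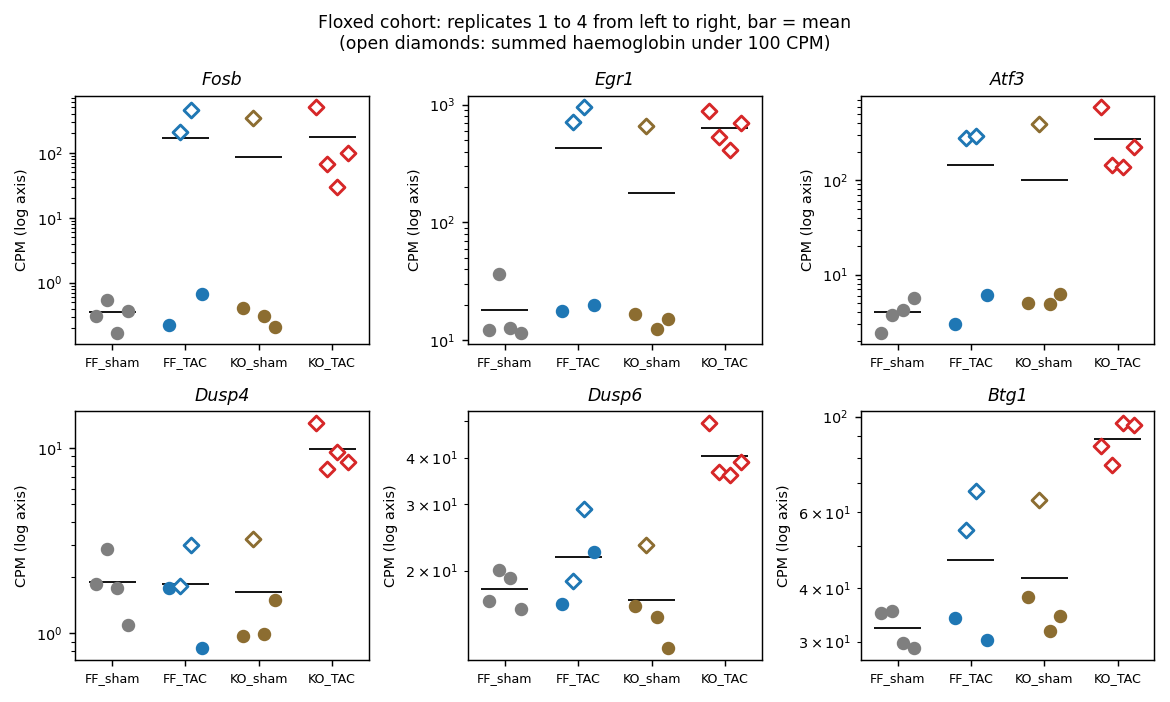
CPM (log axis) of 6 genes in the 4 floxed groups, 1 symbol per library with replicates 1 to 4 from left to right and a bar at the group mean; open diamonds are haemoglobin-low libraries. Fosb, Egr1 and Atf3 follow the diamonds in every group. Dusp4 and Dusp6 are highest in the 4 KO_TAC libraries (7.65 to 13.7 and 36.0 to 49.5 CPM), and within KO_sham both are highest in the diamond.

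FF_TAC against FF_sham asks, by the labels, what overload changed in floxed hearts. By edgeR 0 of the 39 genes were called, as were 0% of all genes, while 30 of the 39 were higher and 1 lower at an unadjusted p under 0.05 (6.67% and 4.44% of genes). The log2 fold change was 8.88 for Fosb (SE 2.84, adjusted p 0.346), 4.55 for Egr1 (SE 1.47, adjusted p 0.346) and 5.18 for Atf3 (SE 1.67, adjusted p 0.346). In all floxed comparisons on the 16 libraries Fosb passed the filter on low counts only through the haemoglobin-low libraries, so the size of its change is uncertain. DESeq2 called 13 of the 39 genes higher (0.857% of genes called higher): Fosb, Fosl1, Junb, Atf3, Maff, Egr1, Egr2, Egr3, Dusp2, Zfp36, Myc, Gadd45b and Gadd45g. For Fosb, Egr1 and Atf3, FF_TAC 1 lay within the FF_sham range and the libraries labelled FF_TAC 2 and 3 were far above. FF_TAC 4 was at most slightly above it (0.662 against 0.544 CPM for Fosb, 6.13 against 5.67 CPM for Atf3). With the haemoglobin-high libraries alone, 2 against 4, the median log2 fold change over the 37 genes tested was -0.04, compared with 2.51 in the whole comparison. Rgs2 was the 1 gene lower at an unadjusted p under 0.05, with 9.99 to 23.4 CPM in FF_TAC and 29.9 to 41.1 CPM in FF_sham. It did not overlap (2.56% of the 39, against 514 of 15596 genes). Myc and Gadd45b were higher in every FF_TAC than in every FF_sham library (5.13% of the 39, against 427 of 15596 genes). In FF_TAC 1 and 4 Myc was 4.54 and 4.91 CPM, against at most 3.54 CPM in FF_sham. Gadd45b was 10.1 and 8.28 CPM there, against at most 8.19 CPM.

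KO_sham against FF_sham asks, by the labels, what the knockout changed without overload. By edgeR 0 of the 39 genes were called (0% of all genes; 13 of the 39 higher at an unadjusted p under 0.05, 33.3% against 2.78% of genes), and DESeq2 called 0 of the 39. The median log2 fold change was 1.35, and among the haemoglobin-high libraries alone, 3 against 4, it was 0.03. Fosb was 7.94 (SE 2.77, adjusted p 0.9), Egr1 3.28 (SE 1.39, adjusted p 0.939) and Atf3 4.65 (SE 1.63, adjusted p 0.9). Without the library labelled KO_sham 2 Fosb was -0.15 and Egr1 -0.31, and Atf3 was 0.43.

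The AAV9 cohort held no haemoglobin-low library and showed a different order within the module. Per kilobase of exon, Klf2 had the highest mean level in PBS_sham and AAV_sham (72.9 and 60.7 CPM per kilobase), Ier3 in PBS_TAC (48.7) and Jun in AAV_TAC (49.9). In the floxed cohort the highest was Jund in FF_sham (35.9), Junb in FF_TAC and KO_TAC (137 and 219) and Fos in KO_sham (65.6), the last through the library labelled KO_sham 2. Fosl1 and Egr4 were too low to be tested in this cohort. Egr4 was at 0 counts in 13 of the 14 libraries and at 0.0584 CPM in AAV_sham 3.

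The genes followed library by library showed no such separation in the AAV9 cohort. Fosb was 0.876, 7.86 and 6.06 CPM in PBS_sham, 0.702, 1.15 and 2.17 CPM in PBS_TAC, 7.61, 7.66, 3.505 and 2.36 CPM in AAV_sham and 1.35, 1.04, 2.27 and 1.199 CPM in AAV_TAC. Egr1 was 53.4, 78.03 and 101 CPM in PBS_sham, 44.7, 32.3 and 205.3 CPM in PBS_TAC, 204.1, 205.2, 126.3 and 91.1 CPM in AAV_sham and 46.1, 100.5, 33.98 and 26.96 CPM in AAV_TAC. Atf3 was 18.7, 41.2 and 27.4 CPM in PBS_sham, 29.8, 28.4 and 19.9 CPM in PBS_TAC, 23.97, 59.5, 28.3 and 33.2 CPM in AAV_sham and 27.3, 37.98, 15.6 and 24.1 CPM in AAV_TAC. PBS_sham 1 was the lowest of its group in all 3 markers, and every AAV_TAC library was below every AAV_sham library for Fosb. Nr4a3 was 11.6, 42.9 and 17.9 CPM in PBS_sham, 18.1, 20.8 and 16.3 CPM in PBS_TAC, 43.2, 48.3, 25.3 and 35.6 CPM in AAV_sham and 16.9, 21.4, 13.1 and 16.4 CPM in AAV_TAC. Klf6 was 84.1, 107.4 and 183.9 CPM in PBS_sham, 78.9, 68.7 and 80.6 CPM in PBS_TAC, 93.4, 101.5, 87.3 and 95.1 CPM in AAV_sham and 79.4, 70.3, 61.97 and 72.8 CPM in AAV_TAC. Egr3 was 8.65, 11.8 and 10.5 CPM in PBS_sham, 9.53, 5.24 and 50.2 CPM in PBS_TAC, 40.7, 20.1, 8.18 and 3.57 CPM in AAV_sham and 9.79, 23.4, 3.72 and 4.65 CPM in AAV_TAC. Nr4a3 and Klf6 were lower in every AAV_TAC than in every AAV_sham library, and Egr3 overlapped. Dusp6 was 23.2, 26.2 and 22.6 CPM in PBS_sham, 15.6, 18.2 and 16.8 CPM in PBS_TAC, 22.4, 24.6, 21.96 and 20.2 CPM in AAV_sham and 22.4, 29.3, 19.1 and 21.4 CPM in AAV_TAC. Btg1 was 23.98, 32.5 and 31.1 CPM in PBS_sham, 32.5, 30.8 and 28.3 CPM in PBS_TAC, 27.1, 29.3, 25.1 and 32.4 CPM in AAV_sham and 28.8, 30.8, 35.8 and 29.7 CPM in AAV_TAC. Btg2 was 64.4, 81.4 and 64.8 CPM in PBS_sham, 132, 120.0 and 101.6 CPM in PBS_TAC, 115.9, 165.3, 103.7 and 104 CPM in AAV_sham and 107.5, 136.8, 83.1 and 112.2 CPM in AAV_TAC. Dusp6 was lower in every PBS_TAC than in every PBS_sham library, Btg1 overlapped in both TAC comparisons, and Btg2 was higher in every PBS_TAC than in every PBS_sham library. Gadd45b was 6.79, 7.305 and 6.896 CPM in PBS_sham, 7.72, 7.37 and 7.403 CPM in PBS_TAC, 3.68, 6.55, 6.48 and 4.05 CPM in AAV_sham and 4.04, 5.18, 4.92 and 5.33 CPM in AAV_TAC. Fosl1 was 0, 0.332 and 0.159 CPM in PBS_sham, 0.175, 0.2303 and 0 CPM in PBS_TAC, 0.302, 0.122, 0.0584 and 0.182 CPM in AAV_sham and 0.0499, 0.0575, 0.06305 and 0.144 CPM in AAV_TAC. Gadd45b was at most 7.72 CPM in the 14 libraries, and Fosl1 was at a few counts or 0.

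AAV_TAC against AAV_sham asks what overload changed in hearts given the vector. By edgeR 0 of 37 genes tested were called (0.00635% of genes), and DESeq2 called 2, with no share of all genes given beside them. Most differences had the same sign: 27 of the 37 had a lower mean in AAV_TAC, 13 were lower at an unadjusted p under 0.05 (35.1%, against 3.66% of genes) and 0 higher (3.39% of genes), and 11 were lower without overlap of the libraries (29.7%, against 5.79% of genes). These 11 were Fos, Fosb, Fosl2, all 3 NR4A genes, Klf6, Zfp36, Csrnp1, Rgs2 and Sik1. Sik1 was 149, 161, 168.5 and 148 CPM in AAV_sham and 81.8, 82.2, 70.3 and 82.5 CPM in AAV_TAC, a log2 fold change of -0.99 (SE 0.19, adjusted p 0.136). Nr4a2 was 14.4, 19.1, 10.1 and 9.20 CPM in AAV_sham and 1.997, 2.76, 4.29 and 3.31 CPM in AAV_TAC, a log2 fold change of -2.10 (SE 0.46, adjusted p 0.174). The AAV_TAC level was therefore the lower in every library for both genes, without passing the adjusted threshold. Heat shock genes had 9 of 10 lower means and 5 lower at an unadjusted p under 0.05 in the same comparison.

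PBS_TAC against PBS_sham asks the same in saline-injected hearts. By edgeR 0 of 37 genes were called (0.0318% of genes), with 10 lower and 4 higher at an unadjusted p under 0.05 (12% and 6.5% of genes). DESeq2 called 2, with no share of all genes given beside them. Sik1 was 67.8, 158 and 123 CPM in PBS_sham 1 to 3 and 87.0, 76.9 and 81.3 CPM in PBS_TAC, a log2 fold change of -0.51 (SE 0.22, adjusted p 0.246). Nr4a2 was 2.25, 9.80 and 16.7 CPM in PBS_sham and 3.8, 4.26 and 2.64 CPM in PBS_TAC (-1.43, SE 0.52, adjusted p 0.199). PBS_sham 1 was below every PBS_TAC library in both genes, while PBS_sham 2 and 3 were above every one. Another gene went the other way: Ier3 was 31.2, 26.7 and 14.5 CPM in PBS_sham and 49.0, 44.7 and 71.6 CPM in PBS_TAC, without overlap (1.20, SE 0.26, adjusted p 0.108). With it, Jun, Ier5, Btg2, Arc and Gadd45b had every PBS_TAC above every PBS_sham library, 6 genes in all (16.2%, against 8.11% of genes). Klf6, Dusp1 and Dusp6 had every PBS_TAC below every PBS_sham library (8.11% of the 37, against 1035 of 15745 genes). Without PBS_sham 1, 10 genes were called (11.1% of genes): Ier3 higher, and Fosb, Fosl2, Maff, Nr4a2, Klf2, Klf4, Klf6, Dusp1 and Sik1 lower. PBS_sham 3 stood apart in cell markers, with a cardiomyocyte sum of 23834 CPM, a smooth muscle sum of 1795 CPM and an endothelial sum of 2490 CPM, and its part in these values was not tested.

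**Figure D5:**
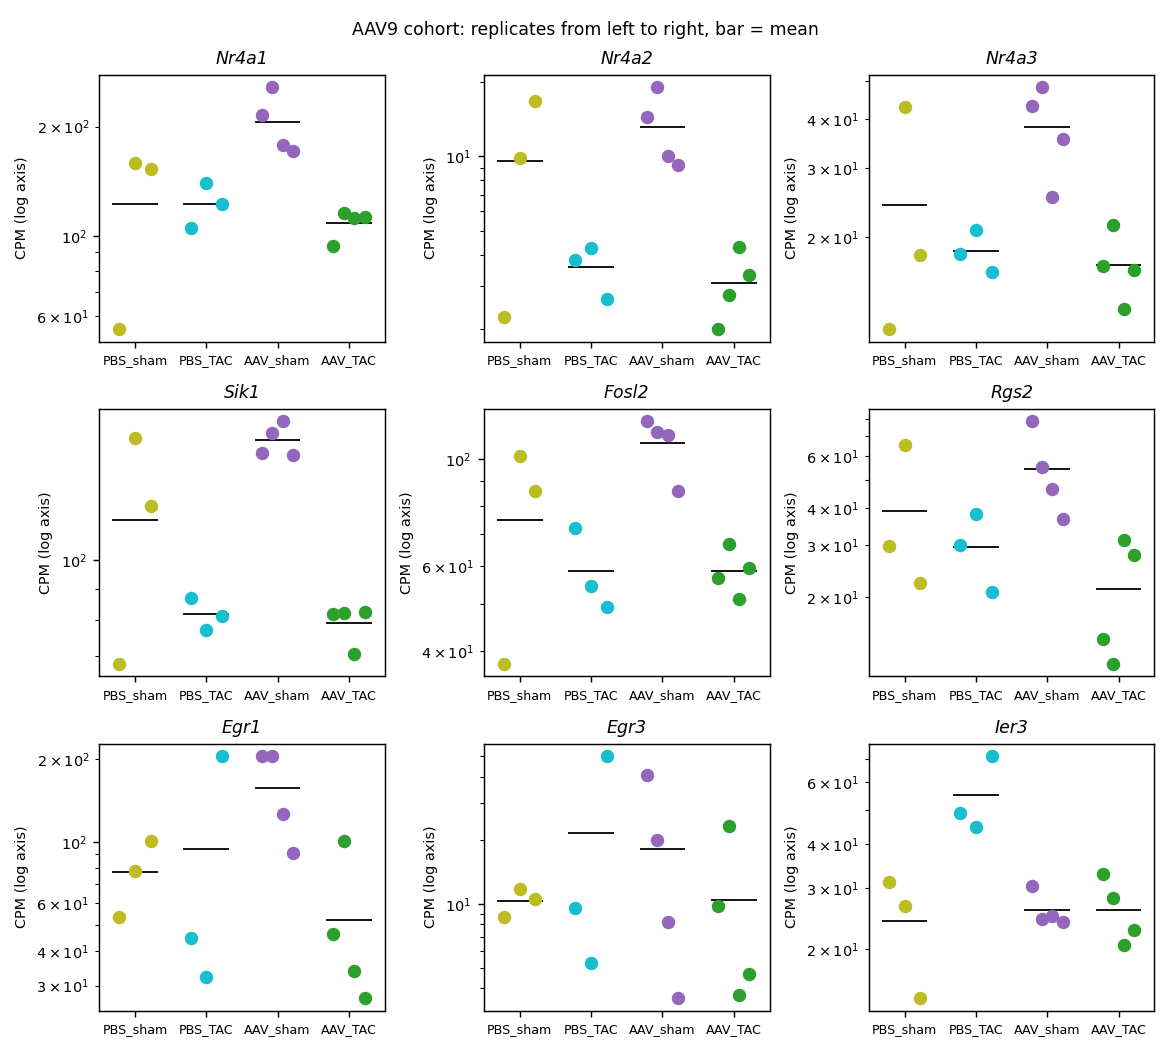
CPM (log axis) of 9 genes in the 4 AAV9 groups, 1 point per library with replicates from left to right and a bar at the group mean. Nr4a1 to Nr4a3, Sik1, Fosl2 and Rgs2 are lower in every AAV_TAC than in every AAV_sham library, Egr1 and Egr3 vary within each group, and Ier3 is highest in PBS_TAC (44.7 to 71.6 CPM).

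The vector itself was compared in AAV_sham against PBS_sham and in AAV_TAC against PBS_TAC, and neither comparison called any of the 37 genes by edgeR (0.0127% and 0.0381% of genes called; 9 and 6 of the 37 at an unadjusted p under 0.05, against 20.7% and 3.19% of genes, and 2 and 1 called by DESeq2). The share of all genes called by DESeq2 is not given for these. Cpt1a itself overlapped between vector and PBS libraries in both comparisons. Btg2 and Nr4a1 were higher in every AAV_sham than in every PBS_sham library, a share near that of all genes (5.41% of the 37, against 5.53% of genes). Btg2 was 104 to 165 against 64.4 to 81.4 CPM, and Nr4a1 was 171 to 258 against 55.2 to 158.5 CPM. Dusp2, Gadd45b and Gadd45g were lower without overlap (8.11% of the 37, against 838 of 15745 genes). Ier3 was 30.4, 24.4, 24.8 and 24.0 CPM in AAV_sham, within the range of PBS_sham. Without PBS_sham 1, 7 genes were called in AAV_sham against PBS_sham (17.4% of genes): Btg2 higher, and Maff, Klf4, Klf6, Klf10, Dusp2 and Gadd45g lower. In AAV_TAC against PBS_TAC, Ier3 was 32.8, 28.0, 20.6 and 22.6 CPM in AAV_TAC, below the 3 PBS_TAC libraries, as were Klf10, Arc and Gadd45b (10.8% of the 37, against 4.28% of genes). Dusp5, Dusp6 and Zfp36l1 were higher in every AAV_TAC than in every PBS_TAC library (8.11% of the 37, against 660 of 15745 genes). The interaction of vector and TAC called 0 of 37 genes (0.00635% of genes; 6 of the 37 at an unadjusted p under 0.05, against 6.95% of genes), and DESeq2 called 0.

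Levels of the EGR genes also varied between libraries of the same group in this cohort. Egr1 was 205 CPM in PBS_TAC 3 and 204 and 205.2 CPM in AAV_sham 1 and 2, and 27.0 to 126 CPM in the other 11. Egr3 was 50.2, 40.7 and 20.2 CPM in the same 3 libraries and 23.4 CPM in AAV_TAC 2. In AAV_sham 3 and 4 it was 8.18 and 3.57 CPM, in PBS_sham 8.65 to 11.8 CPM, in PBS_TAC 1 and 2 it was 9.53 and 5.24 CPM, and in AAV_TAC 1, 3 and 4 it was 9.79, 3.72 and 4.65 CPM. The highest Egr1 level of the AAV9 cohort was below the lowest of the 7 haemoglobin-low floxed libraries (412 CPM), though the cohorts were normalised apart.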

How the data were processed

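Poly(A) RNA was sequenced from 30 hearts with a stranded kit, per the labels. The authors deposited 1 table of raw counts per gene. The submitters' processing notes name GRCm38, HISAT2 2.1.0, featureCounts and Subread 1.5.1; the strand setting and annotation release are not given in the sources used here. Identifiers were matched to GENCODE M21 symbols. The members, gene lists and tests were chosen with earlier results of these data known. Each cohort was fitted once with edgeR 4.0.16 in R 4.3.3 (filterByExpr, TMM, quasi-likelihood test), its 4 groups sharing the spread, with p-values adjusted by Benjamini-Hochberg over all genes and a threshold of 0.05. The haemoglobin split, set at 100 CPM, is a description on log2(CPM + 0.5), with no test. Values in every library are given for the 3 markers and, in each of 8 families, the gene with the smallest p in KO_TAC against KO_sham and in PBS_TAC against PBS_sham; other genes could be named from the counts. The alternatives were DESeq2 1.42.0, other size factors, no filter, a replicate block, a haemoglobin term, libraries of 1 haemoglobin class and leaving out each library. The procedure was tested on simulated data with the same spread for every gene and no haemoglobin split. That test therefore does not cover genes that vary within a group as these do. KO_TAC titles name both TAC and sham; the genotype and treatment labels were used.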

Additional observations from a re-analysis of the deposited data

Results flagged for a closer look

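Single libraries stood far from the rest of their group of 4 in 19 of 90 gene and group pairs examined (by Dixon's ratio of the gap to the nearest library over the whole range), and chance flags about 1 in 20 groups. The library labelled KO_sham 2 was the highest of its group in 12 of them: Fosb 349.4 CPM, Egr1 664.9 CPM, Atf3 387.7 CPM, Egr4 1.397 CPM, Nr4a3 59.87 CPM, Klf6 195.6 CPM, Ier3 109 CPM, Gadd45b 47.3 CPM, Egr3 111.5 CPM, Nr4a2 39.47 CPM, Btg2 554.6 CPM and Sik1 85.67 CPM. These 12 are the same library seen through 12 genes. In KO_TAC, Fosb in KO_TAC 1 (509.6 CPM) and Ier3 in KO_TAC 2 (343.1 CPM) were far above the other 3 libraries. Egr1 was far above the rest of FF_sham in FF_sham 2 (36.26 CPM). In the AAV9 cohort, Ier3 in AAV_sham 1 (30.42 CPM) was far above its group and Sik1 in AAV_TAC 3 (70.3 CPM) far below. Fosl1 in AAV_TAC 4 (0.1439 CPM) and Egr4 in AAV_sham 3 (0.05841 CPM) stood apart at levels of a few counts.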

How the results depend on the processing

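The number of early response genes called in KO_TAC against KO_sham was 8, and became 15 with the replicate block, 2 with the haemoglobin term and 5 to 35 when 1 library was left out (35 without the library labelled KO_sham 2). In KO_TAC against FF_TAC the 3 calls became 0 among the haemoglobin-low libraries alone, and 2 to 3 with 1 library left out. DESeq2 called 13 in FF_TAC against FF_sham, 2 for the interaction of knockout and TAC, 2 in each of PBS_TAC against PBS_sham, AAV_TAC against AAV_sham and AAV_sham against PBS_sham, and 1 in AAV_TAC against PBS_TAC, where edgeR called 0. Without a filter on low counts edgeR called 1 in PBS_TAC against PBS_sham and 2 in AAV_TAC against AAV_sham. For the replicate block, for DESeq2 outside FF_TAC against FF_sham and for the fit without a filter, the share of all genes is not given. Those counts are therefore not read as results about the early response genes. With 1 library left out the count was 0 to 10 in PBS_TAC against PBS_sham and 0 to 7 in AAV_sham against PBS_sham, the highest both without PBS_sham 1. The cause was not tested.

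Signs turned for the markers. With the haemoglobin term the log2 fold change in KO_TAC against KO_sham was -0.89 for Fosb, -0.425 for Atf3 and -0.069 for Egr1, in KO_TAC against FF_TAC -0.98, -0.10 and -0.41, and in KO_sham against FF_sham -0.30 for Egr1. Among haemoglobin-low libraries alone KO_TAC against FF_TAC gave -0.96, -0.10 and -0.43. Among haemoglobin-high libraries alone KO_sham against FF_sham gave -0.14 for Fosb and -0.30 for Egr1. With 1 library left out, Fosb ran from -0.41 to 9.09 in KO_TAC against KO_sham, from -1.37 to 1.33 in KO_TAC against FF_TAC and from -0.15 to 8.35 in KO_sham against FF_sham, and Egr1 from -0.31 to 3.86 in the last.

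Deviations of libraries with the same replicate number had correlations of -0.353 to 0.177 in KO_TAC against KO_sham and -0.019 to 0.454 in KO_TAC against FF_TAC. These few values cannot settle whether equal numbers mark paired libraries. Pairing was not used in the main fit, and the block's 15 calls rest on the replicate number alone. With 3 or 4 libraries a group and 7 haemoglobin-low libraries, 4 of them all of KO_TAC, the knockout with TAC and the split cannot be told apart. Fosl1 and Egr4 lie near the limit that a count of 0 allows outside the low libraries, and passed the filter on low counts only through these libraries. Fosb and Dusp2, also low outside them, passed it in the fit on all 16 floxed libraries only through them as well.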
